A study of Mus musculus with 8 samples.

Results

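The 10 genes described here are 8 antioxidant targets of the transcription factor NRF2 (Hmox1, Nqo1, Gclc, Gclm, Slc7a11, Gsr, Txnrd1, and Srxn1) and the metallothioneins Mt1 and Mt2, of 37263 genes counted in the series. They were found by their symbols in GENCODE M21, and no level or threshold entered that rule. The set was, however, chosen by a proposal made with earlier measured values of these same libraries in view, so the values of the 10 genes are given as a description and without a test. All 10 passed the filter on low counts (at least 1 CPM in at least 2 libraries), as did 14931 genes in all. E14 mouse ESCs of strain 129/Ola, grown without feeders in serum medium with LIF, were moved to 2i, a serum-free medium with LIF, the MEK inhibitor PD0325901, and the GSK3 inhibitor CHIR99021. RNA was sequenced after 4, 16, 24, and 32 hr in 2i, and at the same times in 2i with 17 µM vitC (L-ascorbic acid), with 1 library for each of the 8 combinations. All 8 groups share the cell line, LIF, and both inhibitors, and serum libraries were not analysed here, so that 4 hr in 2i is the earliest state described. No label says that the 8 libraries came from separate cultures, and none was repeated.

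The deposited counts summed to 12940716 to 18434932 per library in 2i and to 4753528 to 13157570 with vitC, with the fewest in the vitC libraries at 24 hr and 16 hr (6969300). The share of counts on Lars2, Gm23935, and ENSMUSG00000093077 was 0.0113% to 0.0277% at 4 hr and 0.206% to 7.11% later, and it exceeded 4% in the 2i library at 24 hr and in the vitC libraries from 16 hr on. The 4 hr and 24 hr libraries shared a sequencer lane, as did those of 16 hr and 32 hr. Lane and time therefore cannot be told apart in 16 hr or 32 hr against 4 hr. The same holds for the steps from 16 hr to 24 hr and from 24 hr to 32 hr. All 8 ESC markers were detected in each library, with summed levels of 1592 to 2000 CPM. The 6 fibroblast markers summed to 95.1 and 114 CPM at 4 hr and to 261 to 674 CPM later, almost all of it from Col1a1 and Col1a2, while Lum stayed at or below 0.429 CPM. Summed markers of trophoblast lay between 7.50 and 26.9 CPM and those of primitive endoderm between 10.4 and 33.2 CPM, and the neural list, of which 3 of 4 genes were in the tables, ran from 43.7 to 174 CPM through Tubb3. The trophoblast and neural sums were highest in the 4 hr libraries, as were Hmox1, Nqo1, Gclc, Gclm, Txnrd1, Srxn1, and, by little, Gsr. The part of these shares in the results below was not tested, and in bulk RNA fewer cells of a type and less RNA per cell cannot be told apart.

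NRF2, encoded by Nfe2l2, is made continuously and degraded through KEAP1 and a CUL3 ubiquitin ligase. Oxidants and electrophiles block this degradation, and NRF2 then binds antioxidant response elements (AREs) together with small MAF proteins, whereas BACH1 competes for such sites. Its targets make glutathione, reduce thioredoxin and peroxiredoxins, detoxify quinones, and break down heme. Metallothioneins are small cysteine-rich proteins that bind zinc and copper, and their genes respond to zinc through the transcription factor MTF1, which binds metal response elements (MREs).

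RefSeq (GRCm38.p6) gave 9 promoter windows for 7 of the 10 members, and the promoters of Hmox1, Gclc, and Gsr were not analysed here. Of the 7, those whose window holds elements of these pathways are shown. Each window covers 250 bases before and 50 bases after an annotated start, and the 250 bases before it are printed 5′ to 3′ on the gene's strand. Capitals mark letters, on either strand, of the ARE core TGACNNNGC, the related NF-E2-type element TGANTCAGC, the MRE core TGCACNC or TGCGCNC, or the amino acid response element core TGATGNAA, which ATF4 binds. A TGACTCAGC counts as both an ARE core and an NF-E2-type element, and the NF-E2-type and amino acid response elements were added to the search after the sequences were seen. The metallothionein promoters come first, Mt2 at chr8:94172368-94172617 (plus strand) and Mt1 at chr8:94178839-94179088 (plus strand).
Mt2: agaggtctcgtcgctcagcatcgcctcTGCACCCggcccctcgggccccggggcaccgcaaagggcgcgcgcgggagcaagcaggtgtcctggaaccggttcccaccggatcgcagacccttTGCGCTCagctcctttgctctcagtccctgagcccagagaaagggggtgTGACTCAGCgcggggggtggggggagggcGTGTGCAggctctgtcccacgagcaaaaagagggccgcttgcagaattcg
Mt1: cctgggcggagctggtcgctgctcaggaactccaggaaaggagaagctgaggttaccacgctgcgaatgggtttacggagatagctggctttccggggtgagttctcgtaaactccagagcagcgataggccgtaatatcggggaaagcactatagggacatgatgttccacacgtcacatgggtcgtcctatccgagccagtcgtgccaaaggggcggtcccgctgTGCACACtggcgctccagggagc
Next are 3 of the NRF2 targets, Gclm at chr3:122245307-122245556 (plus strand), Srxn1 at chr2:152105274-152105523 (plus strand), and Txnrd1 at chr10:82858956-82859205 (plus strand), the only one of 3 annotated Txnrd1 starts whose window held any of these letters.
Gclm: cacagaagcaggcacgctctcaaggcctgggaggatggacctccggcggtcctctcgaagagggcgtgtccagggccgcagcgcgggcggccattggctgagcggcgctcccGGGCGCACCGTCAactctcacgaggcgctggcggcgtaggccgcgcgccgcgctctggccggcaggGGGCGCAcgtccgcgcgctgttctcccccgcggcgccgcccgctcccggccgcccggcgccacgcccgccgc
Srxn1: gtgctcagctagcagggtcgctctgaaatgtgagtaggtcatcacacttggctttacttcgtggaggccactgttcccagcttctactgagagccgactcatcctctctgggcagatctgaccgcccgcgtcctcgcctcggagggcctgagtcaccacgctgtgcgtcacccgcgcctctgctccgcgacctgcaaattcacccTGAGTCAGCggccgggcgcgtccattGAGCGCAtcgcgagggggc
Txnrd1: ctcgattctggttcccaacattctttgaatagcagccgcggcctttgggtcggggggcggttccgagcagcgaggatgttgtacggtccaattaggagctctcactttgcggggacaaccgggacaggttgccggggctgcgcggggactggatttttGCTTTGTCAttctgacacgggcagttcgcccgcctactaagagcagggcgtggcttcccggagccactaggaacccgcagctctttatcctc
The last is Slc7a11 at chr3:50443614-50443863 (minus strand).
Slc7a11: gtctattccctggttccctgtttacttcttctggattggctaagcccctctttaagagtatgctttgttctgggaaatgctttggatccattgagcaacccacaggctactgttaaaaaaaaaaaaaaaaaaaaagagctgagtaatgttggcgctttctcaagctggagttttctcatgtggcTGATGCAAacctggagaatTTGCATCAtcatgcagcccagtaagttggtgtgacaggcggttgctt

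Over the whole 300-base windows, Mt2 held 4 MRE cores and 1 TGACTCAGC, which lay 79 to 71 bases before the start. Mt1 held 3 MRE cores, of which the TGCACAC lay 23 to 17 bases before the start and a TGCACTC and a TGCGCTC in the first 50 bases after it. Of all 32851 RefSeq windows of this length, 1.97% held 3 or more MRE cores and 0.517% held 4 or more. Gclm held 3 MRE cores and 1 ARE core, TGACGGTGC on the opposite strand, and one of the MRE cores overlapped the ARE core. In Srxn1, the NF-E2-type TGAGTCAGC lay 45 to 37 bases before the start, an ARE core lay after the start, and an MRE core lay 19 to 13 bases before it. The Txnrd1 window held 1 ARE core. An ARE core stood in 12.4% of all windows and an NF-E2-type element in 1.19%. Slc7a11 held neither, and had 2 copies of TGATGCAA on opposite strands, 66 to 59 and 47 to 40 bases before the start. Of all windows, 0.0700% held 2 or more of that core, but it was added to the search after the sequences were seen. The Nqo1 window held none of the letters searched. These matches are descriptions of the sequence, and binding was not measured here.

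**Figure D1:**
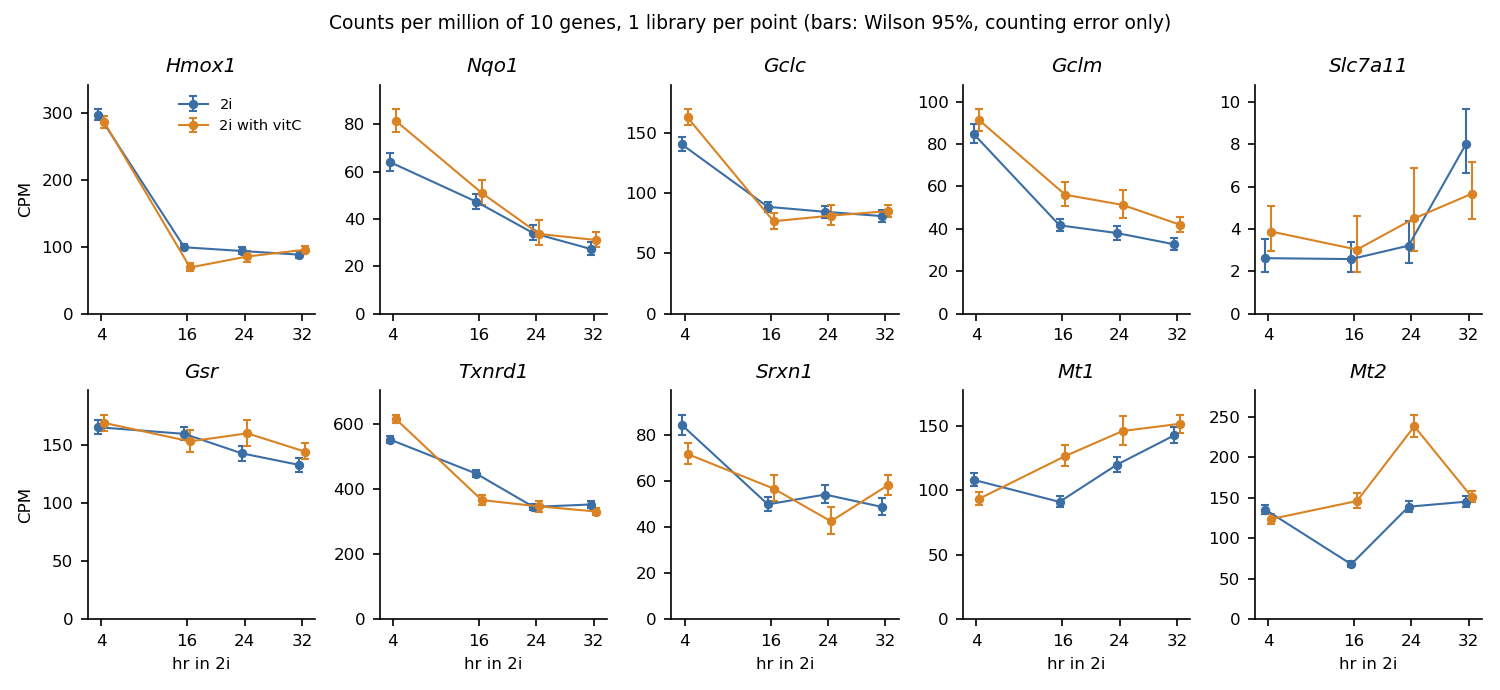
CPM (vertical axis, from 0, a separate scale for each gene) of the 10 genes against hr in 2i, in 2i (blue) and in 2i with vitC (orange), with 1 library per point and Wilson 95% intervals for counting error. Hmox1, Nqo1, Gclc, Gclm, Txnrd1, Srxn1, and Gsr were higher in both 4 hr libraries than in any later one. Gsr stayed between 133 and 169 CPM, and Mt2 was highest at 238 CPM in the vitC library at 24 hr.

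Levels are given as CPM, which relates a count to the library total scaled by TMM factors. Comparisons between genes use CPM per kb of merged exon. On that scale Mt2 was the most abundant member, with a median of 241 CPM per kb over the 8 libraries, followed by Mt1 (99.1), Gsr (56.7), Hmox1 (53.8), Txnrd1 (50.7), Nqo1 (26.2), Gclc (22.5), Srxn1 (19.6), Gclm (7.40), and Slc7a11 (0.255). The distance between Mt2 and Mt1 rests largely on merged exon length, 588 and 1246 bases, since their median CPM were 142 and 123. The median over 14519 tested genes with a length was 5.58 CPM per kb. Neighbours in this order overlapped in their ranges over the libraries, except that Mt1 lay wholly above Gsr, Srxn1 above Gclm, and Gclm above Slc7a11. Hmox1 spanned the widest range, with its highest level 4.32 times its lowest, and Gsr the narrowest, at 1.27 times. The 8 NRF2 targets together summed to 1391 CPM at 4 hr in 2i and to 936, 795, and 770 CPM at 16, 24, and 32 hr. With vitC they summed to 1482, 831, 805, and 792 CPM. At 4 hr in 2i, Txnrd1 (552 CPM) and Hmox1 (297 CPM) held most of the sum and Slc7a11 only 2.62 CPM. The sums therefore do not show the course of each gene. The metallothioneins summed to 244, 159, 259, and 288 CPM in 2i and to 217, 273, 384, and 303 CPM with vitC.

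Hmox1 (ENSMUSG00000005413), heme oxygenase 1, which opens the heme ring to biliverdin, carbon monoxide, and iron, stood at 297 CPM at 4 hr in 2i and at 98.9, 93.3, and 87.9 CPM at 16, 24, and 32 hr. With vitC it stood at 286, 68.7, 85.1, and 95.1 CPM. Both 4 hr libraries were therefore above all 6 later ones. How many of all genes tested separate in this way was not counted, so nothing is read from it. Between the single libraries of 16 hr and 4 hr, the log2 ratio was -1.59 in 2i (exact 95% interval -1.66 to -1.51, counting error only) and -2.05 with vitC (-2.20 to -1.92). After 16 hr the 2i level moved little, with a log2 ratio of 32 hr to 16 hr, 2 libraries of 1 lane, of -0.17 (-0.28 to -0.06), whereas with vitC that ratio was 0.47 (0.31 to 0.63), from the low of 68.7 CPM at 16 hr. In the additive edgeR model of treatment and time over the 8 libraries, Hmox1 had a log2 fold change of -1.71 (SE 0.16) for 24 hr against 4 hr, within 1 lane, or 3.27 times lower. For Nqo1, Gclc, Gclm, Txnrd1, Srxn1, and Gsr, both 4 hr libraries were likewise above all later ones. Single-library log2 ratios of 24 hr to 4 hr, also within that lane, were taken for Hmox1 and these genes. Apart from Gsr, they ran in 2i from -1.67 for Hmox1 to -0.64 for Srxn1, and with vitC from -1.75 for Hmox1 to -0.75 for Srxn1. Gsr had ratios of -0.21 in 2i (-0.30 to -0.13) and -0.08 with vitC (-0.20 to 0.04).

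Nqo1 (ENSMUSG00000003849), the quinone reductase NAD(P)H quinone dehydrogenase 1, was at 64.1, 47.4, 34.0, and 27.3 CPM in 2i and at 81.6, 51.0, 33.7, and 31.1 CPM with vitC. It was lower at each successive time in both treatments, unlike Hmox1, most of whose difference was already present at 16 hr. Each step between successive times also changed lane. With vitC the last step, 32 hr to 24 hr, was within counting error (log2 ratio -0.12, -0.39 to 0.16). The additive log2 fold changes against 4 hr were -0.56 (SE 0.15) at 16 hr, -1.09 (SE 0.16) at 24 hr, and -1.31 (SE 0.16) at 32 hr. Between 16 hr and 32 hr the log2 ratio was -0.79 in 2i (-0.97 to -0.62) and -0.71 with vitC (-0.93 to -0.50). Hmox1 took 82.3% of the counts of this pair at 4 hr in 2i, then 67.6%, 73.3%, and 76.3%, and with vitC 77.8%, 57.4%, 71.7%, and 75.4%, lowest at 16 hr in both treatments, and no scaling of the libraries can alter such a share.

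Glutathione is made from glutamate and cysteine by glutamate cysteine ligase, whose catalytic subunit is Gclc (ENSMUSG00000032350) and whose modifier subunit is Gclm (ENSMUSG00000028124). Gclc was at 141, 88.6, 84.5, and 80.9 CPM in 2i and at 163, 76.7, 81.3, and 85.1 CPM with vitC, with all later libraries close together and below both at 4 hr. Its additive log2 fold change was -0.87 at each of the 3 later times (SE 0.14 to 0.15). Gclm was at 84.8, 41.6, 38.0, and 32.7 CPM in 2i and at 91.3, 56.0, 51.3, and 41.9 CPM with vitC. It continued lower after 16 hr, with additive log2 fold changes of -0.87 (SE 0.15), -1.002 (SE 0.15), and -1.25 (SE 0.15).

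The balance of the 2 subunits therefore differed between libraries. Gclm took 37.6% of the counts of the pair at 4 hr in 2i (Wilson 95% interval 36.1% to 39.2%), 32.0% at 16 hr, 31.0% at 24 hr, and 28.8% at 32 hr (26.5% to 31.1%). With vitC the shares were 35.9% (34.3% to 37.5%), 42.2% (39.1% to 45.5%), 38.7% (34.9% to 42.6%), and 33.0% (30.7% to 35.4%). The share was higher with vitC at 16 hr and 24 hr by more than counting error, with intervals at 32 hr that overlapped. These pairs of genes were set against each other after their values were seen. Of the 50-base stretches of Gclm, 3.92% also occur in other genes, and Gm17494 and Gm6061 overlap 540 bases of its exons, so the level of Gclm carries that uncertainty.

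**Figure D2:**
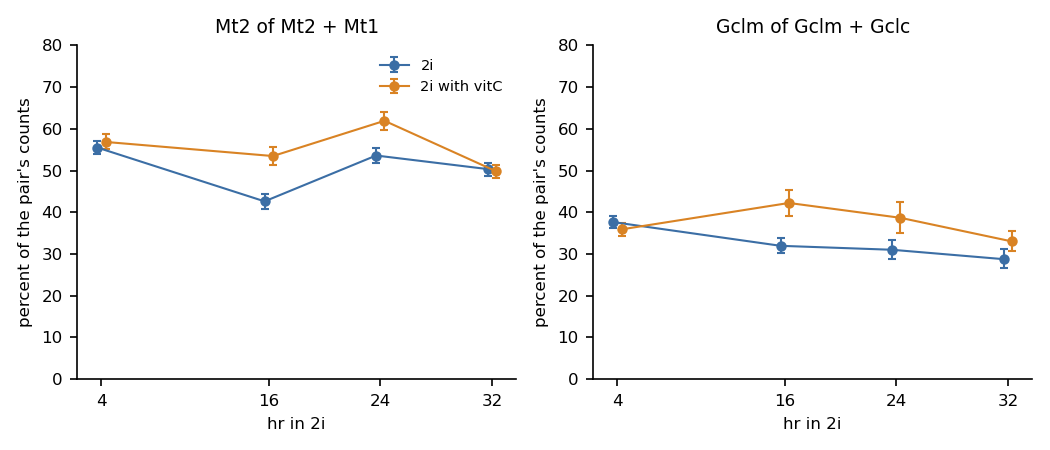
Share of the pair's counts (percent, vertical axis, from 0) taken by Mt2 of Mt2 and Mt1 (left) and by Gclm of Gclm and Gclc (right) against hr in 2i, in 2i (blue) and with vitC (orange), 1 library per point with Wilson 95% intervals. In 2i the Gclm share went from 37.6% at 4 hr to 28.8% at 32 hr, and the Mt2 share was lowest, 42.6%, at 16 hr.

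Slc7a11 (ENSMUSG00000027737), the cystine transporter subunit that brings in the cysteine for glutathione, was the least expressed member, with 21 to 108 counts per library. Of its 50-base stretches, 0.618% also occur in other genes, 286 in all, and their part in these low counts was not tested. In 2i Slc7a11 was at 2.62, 2.58, 3.21, and 8.02 CPM, and with vitC at 3.88, 3.03, 4.50, and 5.66 CPM. Both 32 hr libraries stood above all 6 earlier ones, an order that was not counted over all genes tested. With vitC the Wilson intervals at 24 hr (2.95 to 6.89 CPM) and 32 hr (4.47 to 7.18 CPM) overlapped. On the log2 scale, 32 hr stood to 24 hr, a step between lanes, at 1.28 in 2i (0.79 to 1.88) and 0.32 with vitC (-0.39 to 1.11). Within the lane of 16 hr and 32 hr, 32 hr stood to 16 hr at a log2 ratio of 1.58 in 2i (1.14 to 2.16) and 0.87 with vitC (0.18 to 1.69). Its additive log2 fold change for 32 hr against 4 hr was 1.10 (SE 0.37), 0.61 without the 2i library at 32 hr and 1.55 without the vitC library at 32 hr.

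Gsr (ENSMUSG00000031584), glutathione reductase, which returns oxidized glutathione to its reduced form, varied least of the 10 genes. It was at 165, 159, 143, and 133 CPM in 2i and at 169, 153, 160, and 144 CPM with vitC. The additive log2 fold changes against 4 hr were -0.09, -0.15, and -0.27 (SE 0.13 each). At 32 hr the log2 ratio to 4 hr was -0.31 in 2i (-0.40 to -0.23) and -0.23 with vitC (-0.32 to -0.14), small values whose counting intervals left out 0.

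Thioredoxin reductase 1, encoded by Txnrd1 (ENSMUSG00000020250), keeps cytosolic thioredoxin reduced, and sulfiredoxin, encoded by Srxn1 (ENSMUSG00000032802), restores overoxidized peroxiredoxins. Txnrd1 had the most counts of the 10 genes, with 552, 448, 345, and 352 CPM in 2i and 616, 366, 347, and 331 CPM with vitC. At 16 hr the 2i library lay between the levels of 4 hr and 24 hr, whereas the vitC library was already near its later level, with log2 ratios to 4 hr of -0.30 (-0.35 to -0.26) and -0.75 (-0.81 to -0.69). Its additive log2 fold changes were -0.52, -0.76, and -0.78 (SE 0.14 each). Srxn1 was at 84.3, 49.8, 54.0, and 48.6 CPM in 2i and at 71.6, 56.6, 42.5, and 58.1 CPM with vitC. Its additive log2 fold changes were -0.55, -0.68, and -0.55 (SE 0.17 each), and the 32 hr value moved from -0.73 without the vitC library at 32 hr to -0.35 without the 2i library at 32 hr.

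Mt1 (ENSMUSG00000031765) and Mt2 (ENSMUSG00000031762) lie next to each other on chromosome 8. They did not follow the NRF2 targets that were lower after 4 hr. With Slc7a11, the NRF2 target that was highest at 32 hr, the Pearson correlation over the 8 libraries was 0.693 for Mt1 and 0.451 for Mt2. Mt1 was at 108, 91.1, 120, and 143 CPM in 2i and at 93.6, 127, 146, and 152 CPM with vitC. Its 2 highest libraries were those with vitC at 32 hr and 24 hr, and its lowest was 2i at 16 hr. The additive log2 fold change of Mt1 was 0.09 (SE 0.16) at 16 hr, 0.38 (SE 0.17) at 24 hr, and 0.54 (SE 0.16) at 32 hr. These values of Mt1 turned on the 4 hr libraries, with 0.15 at 24 hr and 0.30 at 32 hr without the vitC library at 4 hr, and 0.64 and 0.80 without the 2i library at 4 hr. At 16 hr the sign turned without the vitC library at 4 hr (-0.16) or at 16 hr (-0.12), and without both the vitC 16 hr and vitC 24 hr libraries (-0.18). Mt2 was at 135, 67.7, 139, and 145 CPM in 2i and at 123, 146, 238, and 151 CPM with vitC. One low library (2i at 16 hr) and one high library (vitC at 24 hr) stood apart, and the other 6 lay between 123 and 151 CPM. An opposite-strand gene, Gm45774, overlaps 432 bases of Mt2, and the sources used here do not give the strand setting of the counting.

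From 4 hr to 16 hr the metallothioneins had opposite signs in the treatments. The log2 ratio of Mt2 was -0.996 in 2i (-1.10 to -0.90) and 0.24 with vitC (0.13 to 0.35), and that of Mt1 was -0.25 (-0.34 to -0.15) and 0.44 (0.31 to 0.56). Within the lane of 4 hr and 24 hr, 24 hr stood to 4 hr at a log2 ratio of 0.04 in 2i (-0.05 to 0.13) and 0.95 with vitC (0.84 to 1.06) for Mt2, and 0.15 (0.05 to 0.25) and 0.64 (0.51 to 0.78) for Mt1. Mt2 in 2i was back at its 4 hr level by 24 hr, with a log2 ratio of 24 hr to 16 hr of 1.03 (0.93 to 1.14). That ratio is between lanes, so lane and time cannot be told apart in it. With vitC Mt2 was lower at 32 hr than at 24 hr, also between lanes, with a log2 ratio of -0.66 (-0.77 to -0.55). Mt1 did not share this step (0.05, -0.07 to 0.18). Mt2 took 55.5% of the counts of the pair at 4 hr in 2i, 42.6% at 16 hr (40.9% to 44.4%), 53.6% at 24 hr, and 50.4% at 32 hr, and with vitC 56.9%, 53.5%, 61.9% (59.7% to 64.2%), and 49.8%. The vitC library at 24 hr, where Mt2 was highest, also had the fewest counts, 6.37% of them on Lars2, Gm23935, and ENSMUSG00000093077, and the highest fibroblast marker sum (674 CPM). Without both the vitC 16 hr and vitC 24 hr libraries, the additive log2 fold change of Mt2 for 24 hr against 4 hr was 0.08 in place of 0.47 (SE 0.24), and that for 16 hr was -0.95 in place of -0.38 (SE 0.24). Whether these library properties took part in the metallothionein levels was not tested.

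**Figure D3:**
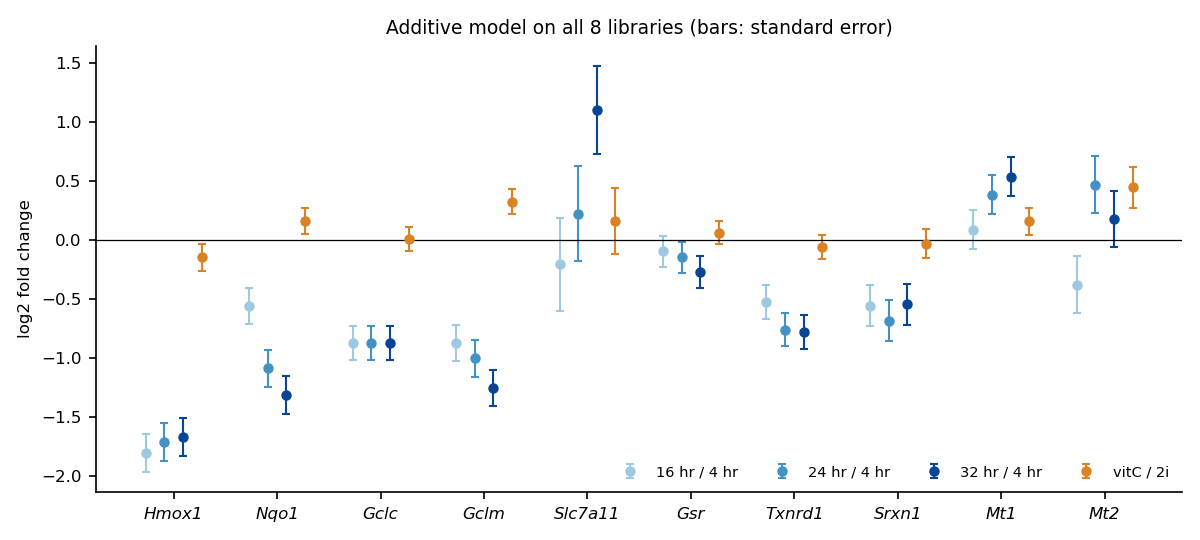
Additive log2 fold changes (vertical axis) of the 10 genes for 16, 24, and 32 hr against 4 hr (light to dark blue) and for vitC against 2i (orange), fitted to all 8 libraries, with bars for the SE. Hmox1, Nqo1, Gclc, Gclm, Txnrd1, and Srxn1 were below 0 at all 3 times, from -1.80 for Hmox1 at 16 hr to -0.52 for Txnrd1 at 16 hr. Gsr was also below 0, from -0.09 at 16 hr to -0.27 at 32 hr. Gclm and Mt2 had the highest vitC values, 0.33 and 0.45.

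In the fit across all genes (edgeR, adjusted p under 0.05, Benjamini-Hochberg), 6 of the 10 genes were below the threshold and lower, and 0 higher, at 16 hr and again at 24 hr, and at 32 hr 6 were lower and 2 higher. The 6 were Hmox1, Nqo1, Gclc, Gclm, Txnrd1, and Srxn1, and the 2 were Slc7a11 and Mt1. Of all 14931 genes tested, 7.24% were called lower and 9.16% higher at 16 hr, 8.98% lower and 11.5% higher at 24 hr, and 11.8% lower and 13.5% higher at 32 hr. With offsets for GC content and gene length the majority of all calls turned from higher to lower, with 48.5%, 49.7%, and 47.4% of them higher at 16, 24, and 32 hr in place of 55.8%, 56.2%, and 53.4%. Because the members were proposed with these contrasts known, nothing is read from their counts, here or in the refits of the same libraries below. For 16, 24, and 32 hr their median log2 fold changes were -0.54, -0.72, and -0.66, and the medians over all genes tested were 0.01, 0.01, and 0.00. With 3 residual degrees of freedom, this model takes as its error how far the courses in 2i and with vitC were not parallel, since no cultures were repeated. When each library was left out in turn, 3 to 6 members were called at 16 hr, 5 to 7 at 24 hr, and 5 to 7 at 32 hr. The lowest counts came at 16 hr without the 2i library at 32 hr or the vitC library at 4 hr (3 each), at 24 hr without the vitC library at 4 hr or at 24 hr (5 each), and at 32 hr without the 2i library at 32 hr or the vitC library at 4 hr (5 each). The 2 higher members at 32 hr were never called together with a library left out. Slc7a11 was called in 6 of 15 alternatives and, of the single libraries left out, only without the vitC library at 32 hr, and Mt1 was called in 11, but not without the 2i library at 32 hr, the vitC library at 4 hr, or the vitC library at 32 hr. Of the 6 lower members, whose signs were the same in all 15 alternatives, Hmox1, Gclc, and Gclm were called in all 15 at every time. At 16 hr Nqo1 and Srxn1 were called in 8 each and Txnrd1 in 9, at 24 hr Srxn1 in 12 and Txnrd1 in 14, and at 32 hr Srxn1 in 10. Without the vitC library at 4 hr none of Nqo1, Srxn1, and Txnrd1 was called at 16 hr.

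VitC is a reducing agent and a cofactor of iron-dependent dioxygenases, and the labels give it as the only difference between the treatments. At 4, 16, and 24 hr, 6 of the 10 genes were above and 4 below their level in 2i, and at 32 hr 8 were above and 2 below. The median log2 ratio of the 10 genes was 0.07, 0.15, 0.08, and 0.10 at the 4 times, and that of all genes tested was 0.01, -0.02, -0.02, and 0.00. In the additive model 0 of the 10 genes were called with vitC by edgeR, 2 had an unadjusted p under 0.05, and DESeq2 called 0. Over all genes, 0.107% were called higher and 0.0603% lower with vitC. The member with the highest value was Mt2, with a log2 fold change of 0.45 (SE 0.17). Its log2 ratio of vitC to 2i was -0.13 at 4 hr (-0.22 to -0.04), 1.10 at 16 hr (0.99 to 1.23), 0.78 at 24 hr (0.67 to 0.89), and 0.06 at 32 hr (-0.04 to 0.15). Without both the vitC 16 hr and vitC 24 hr libraries the additive value was -0.04, and without any filter on low counts Mt2 was called (0.44). Gclm followed with 0.33 (SE 0.11), and its ratios were 0.10 (-0.01 to 0.22), 0.43 (0.25 to 0.61), 0.43 (0.20 to 0.66), and 0.36 (0.17 to 0.55) at the 4 times.

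Nqo1 was higher with vitC at 4 hr, with a log2 ratio of vitC to 2i of 0.35 (0.23 to 0.47), and its intervals at the 3 later times included 0. Txnrd1 was higher with vitC at 4 hr (0.16, 0.11 to 0.20) and lower at 16 hr (-0.29, -0.35 to -0.23). Gclc was likewise higher with vitC at 4 hr (0.21, 0.13 to 0.30) and lower at 16 hr (-0.21, -0.35 to -0.07), and Srxn1 had alternating signs from one time to the next, with -0.23, 0.19, -0.35, and 0.26 at 4, 16, 24, and 32 hr. Hmox1 was at like levels at 4 hr (-0.05, -0.12 to 0.01) and lower with vitC at 16 hr (-0.52, -0.67 to -0.38). These intervals cover counting error only, and no difference at a single time has a replicate check.

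The regulators of NRF2 were taken as a list of 14 genes, all tested. For 24 hr against 4 hr, 4 rose and 2 fell (42.9% of the list), with a list median log2 fold change of -0.03. Of all genes tested, 11.5% were higher and 8.98% lower, with a median of 0.01. With offsets for GC content and gene length, 2 regulators rose and 3 fell. Nfe2l2, which encodes NRF2 itself, rose with a log2 fold change of 0.62 (SE 0.17, adjusted p = 0.022, edgeR), from 91.7 and 73.3 CPM at 4 hr in 2i and with vitC to 118 and 137 CPM at 24 hr, so it and the 6 lower members had opposite signs. Nfe2l1, which encodes a related factor that senses proteasome activity, rose by 0.51 on the log2 scale (SE 0.15, adjusted p = 0.026), Gsk3b, the kinase that CHIR99021 inhibits, by 0.69 (SE 0.16, adjusted p = 0.011), and Btrc was the fourth (0.48, adjusted p = 0.039, named after its value was seen). Rbx1, the RING subunit of the CUL3 ligase, fell by 0.97 (SE 0.15, adjusted p = 0.0014), and Sqstm1, the autophagy receptor p62 that binds KEAP1, fell by 0.44 (SE 0.14, adjusted p = 0.040). Keap1 (log2 fold change -0.06, SE 0.16, adjusted p = 0.83) and Bach1 (0.00, SE 0.14, adjusted p = 1.00) did not pass. Leaving out 1 library at a time gave 1 to 6 calls in this list, 1 without the vitC library at either 4 hr or 24 hr. Nfe2l2 and Gsk3b lost their calls without the vitC library at 4 hr or at 24 hr, with adjusted p = 0.24 and 0.16 without the latter. Nfe2l1 lost its call without those 2 libraries or the 2i library at 24 hr (highest adjusted p = 0.25, without the vitC library at 4 hr). Sqstm1 was called in 2 of the 8 fits (highest adjusted p = 0.20, without the vitC library at 24 hr), and Rbx1 in all 8.

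Of 22 further NRF2 targets, 21 were tested, since Osgin1 was below the filter. At 24 hr 4 rose and 1 fell (23.8% of those tested), beside 11.5% higher and 8.98% lower of all genes tested. Their median log2 fold change was 0.23, and that of all genes tested was 0.01. Blvrb, biliverdin reductase B, rose by 1.53 on the log2 scale (SE 0.20, adjusted p = 4.1e-04), from 13.7 CPM at 4 hr in 2i to 28.6, 38.5, and 44.5 CPM. Blvra, biliverdin reductase A, had a log2 fold change of -0.56 (SE 0.26, adjusted p = 0.14, named after its value was seen) and did not pass. Idh1, a cytosolic source of NADPH, rose by 1.28 (SE 0.14, adjusted p = 1.3e-04), and Gstm1, a glutathione transferase, rose by 1.30 (SE 0.36, adjusted p = 0.022). Pgd, of the pentose phosphate pathway, was the fourth that rose (0.96, adjusted p = 0.011, named after its value was seen). Cbr3, a carbonyl reductase, fell by 1.30 (SE 0.24, adjusted p = 0.0029). Blvrb, Idh1, and Cbr3 kept their calls with each library left out, and Gstm1 lost its call without the vitC library at 4 hr (0.78, adjusted p = 0.22) or at 24 hr. Leaving out 1 library at a time gave 3 to 6 calls in this list, 3 without the vitC library at 4 hr or at 24 hr.

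Of 27 other enzymes of glutathione, thioredoxin, and peroxide metabolism, 26 were tested (Mgst2 was below the filter). At 24 hr 2 rose and 2 fell (15.4% of those tested), beside 11.5% higher and 8.98% lower of all genes tested. The median log2 fold change of the list was -0.07. Gss, glutathione synthetase, which completes glutathione after the Gclc and Gclm step, rose by 0.73 on the log2 scale (SE 0.15, adjusted p = 0.0054), and catalase, Cat, rose by 0.88 (SE 0.17, adjusted p = 0.0038). Prdx6, a peroxiredoxin that uses glutathione, fell by 1.25 (SE 0.14, adjusted p = 2.0e-04), from 567 (2i) and 605 (vitC) CPM at 4 hr to 256 and 237 at 24 hr. Glrx5, a mitochondrial glutaredoxin, fell by 0.60 (SE 0.19, adjusted p = 0.040). With each library left out, Prdx6 was called in all 8 fits. Gss was called in 5 (highest adjusted p = 0.076, without the vitC library at 4 hr), Cat in 6 (0.080, without the vitC library at 24 hr), and Glrx5 in 4 (0.24, without the vitC library at 24 hr). The list had 1 to 6 calls in these fits, 1 without the vitC library at 4 hr or at 24 hr and 2 without the 2i library at 24 hr.

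Metal response and transport genes were a list of 25, of which 24 were tested and Mt3 was below the filter. At 24 hr 2 rose and 2 fell (16.7% of those tested), beside 11.5% higher and 8.98% lower of all genes tested. The list had a median log2 fold change of -0.07. Mtf1, the factor that drives metallothioneins, had a log2 fold change of 0.08 (SE 0.20, adjusted p = 0.81), and Slc30a1, a zinc exporter and a known MTF1 target, of 0.24 (SE 0.15, adjusted p = 0.28), and neither passed. The zinc importers Slc39a14 and Slc39a8 fell by 1.40 (SE 0.35, adjusted p = 0.015) and 1.21 (SE 0.24, adjusted p = 0.0051) on the log2 scale. The iron exporter ferroportin, Slc40a1, rose by 1.04 (SE 0.29, adjusted p = 0.022), and the copper importer Slc31a1 rose by 0.57 (SE 0.14, adjusted p = 0.016). Each of these 4 calls was lost without some library. The adjusted p reached 0.21 for Slc39a14 without the vitC library at 4 hr, 0.072 for Slc39a8 without the 2i library at 24 hr, 0.21 for Slc40a1 without the 2i library at 4 hr, and 0.15 for Slc31a1 without the vitC library at 24 hr. At 16 hr 7 genes of this list rose and 3 fell (41.7% of those tested), beside 9.16% higher and 7.24% lower of all genes tested. At 32 hr 4 rose and 2 fell (25% of those tested), beside 13.5% higher and 11.8% lower of all genes tested. The 16 hr calls of the list ran from 1, without the 2i library at 4 hr, to 8. They were 2 without the 2i library at 16 hr or the vitC library at 4 hr. Its 24 hr calls ran from 1, without either 24 hr library, to 8, without the vitC library at 16 hr.

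**Figure D4:**
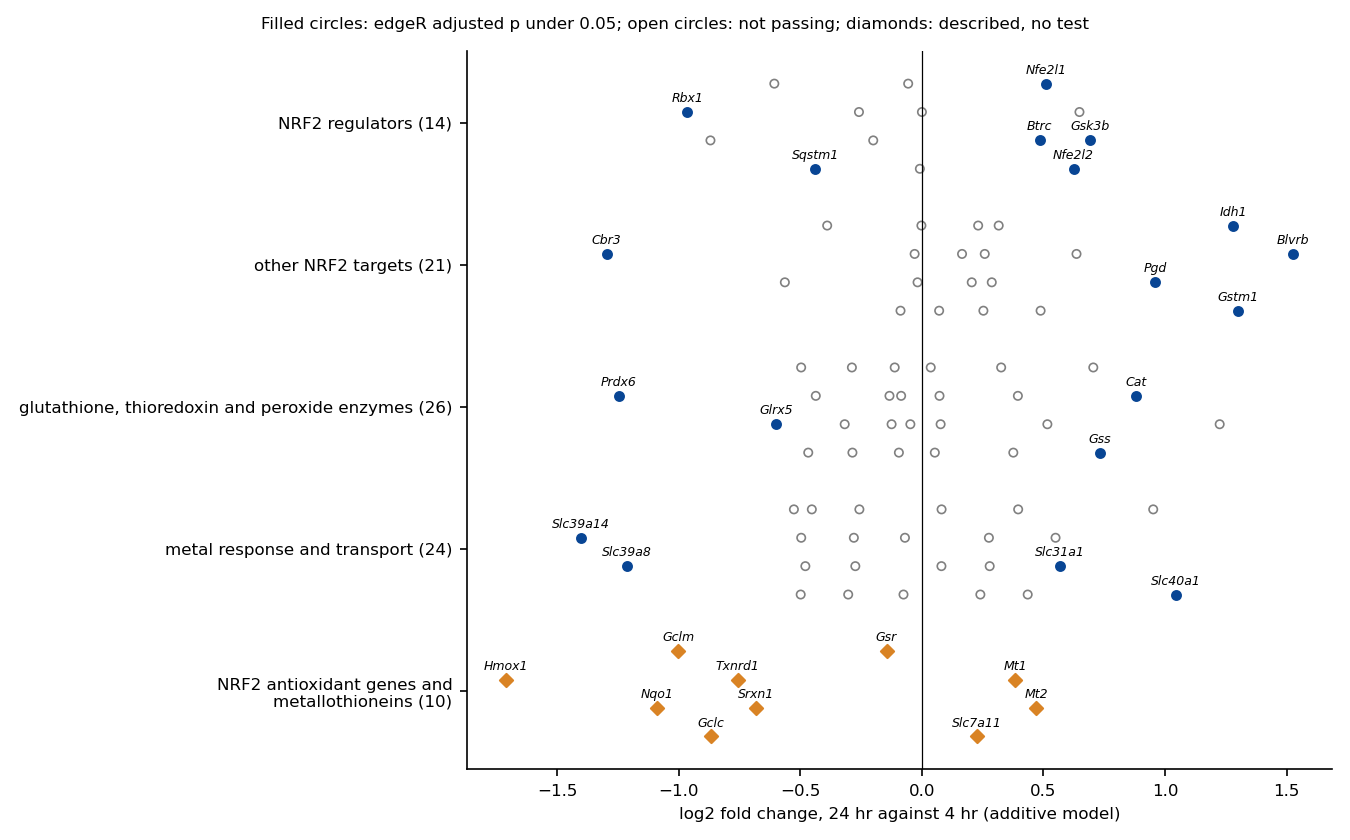
Additive log2 fold change for 24 hr against 4 hr (horizontal axis) of the genes of the 4 lists and of the 10 genes described here, 1 point per gene, with the number tested in parentheses (vertical spread only separates the points). Filled circles passed the edgeR threshold and are named, and diamonds are the 10 genes, given without a test; Blvrb (1.53) is farthest to the right and Hmox1 (-1.71) farthest to the left.

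With vitC, 0 of the 85 tested genes of the 4 lists passed in edgeR, 11 had an unadjusted p under 0.05, and DESeq2 called 3, namely Gsk3b, Pgd, and Txnip, which were chosen here after their values were seen. In edgeR their log2 fold changes were 0.52 (adjusted p = 0.070), 0.66 (adjusted p = 0.087), and -0.49 (adjusted p = 0.13). Gsk3b and Pgd were highest in the vitC libraries at 16 hr and 24 hr, with 128 and 144 CPM for Gsk3b and 176 and 179 CPM for Pgd. These 2 libraries had the fewest counts and 7.11% and 6.37% of them on Lars2, Gm23935, and ENSMUSG00000093077. Scaling without these features left 25 genes called with vitC over all genes tested, as many as in the main fit. Their part was not otherwise tested.

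Genes were also ranked by how closely their log2 CPM followed the members over the 8 libraries, which share lanes, depth, and the features named above. Of 10449 protein-coding genes outside the members with a mean of at least 5 CPM, Cwc27 (Pearson r = 0.994), Srgap3 (0.962), Arid4a (0.958), Lrrc9 (0.957), and Synj2 (0.955) lay closest to the mean of Mt1 and Mt2. Cwc27 was at 41.8, 31.8, 45.7, and 50.0 CPM in 2i and at 40.7, 45.8, 59.2, and 50.4 CPM with vitC, with its low and its high in the same libraries as Mt2. Among the closest to the mean of the 8 NRF2 targets were Ddx20 (0.992), Ppp2r2d (0.989), Gm49342 (0.985), and Cdc25a (0.983). Ddx20 was at 166, 98.5, 101.5, and 96.7 CPM in 2i and at 184, 100.6, 99.5, and 102 CPM with vitC, with both 4 hr libraries above all later ones. Among the members, Hmox1 and Gclc had the highest correlation (r = 0.985, 8 libraries), and Txnrd1 and Mt1 the lowest (-0.818). Mt1 and Mt2 stood at 0.766. With 8 libraries and 10449 genes ranked, values this high are given as a description only.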

How the data were processed

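RNA depleted of ribosomal RNA (RiboZero Gold, TruSeq RNA kit, 50 bp single-end reads, HiSeq 2000) was sequenced in 8 ESC libraries, 1 per treatment and time. The authors deposited raw counts per Ensembl gene for each library. Their processing notes name GSNAP, HTSeq, and the builds NCBIM37 and mm9, while the strand setting, counting mode, and annotation are not given in the sources used here. Reads from opposite-strand neighbours therefore may not be separable. Library totals of 4753528 to 18434932 set a 3-count limit of 0.163 to 0.631 CPM.

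Symbols came from GENCODE M21, which held 32604 of the 37263 identifiers. The 14931 genes that reached 1 CPM in 2 or more libraries were fitted with edgeR 4.0.16 (R 4.3.3) by quasi-likelihood, with TMM factors and additive terms for treatment and time over all 8 libraries, leaving 3 residual degrees of freedom, and Benjamini-Hochberg adjustment at 0.05. The script was tested on simulated data. Single-library log2 ratios used a prior count of 2 and exact conditional binomial 95% intervals, and CPM and shares used Wilson 95% intervals, all for counting error only. The members and gene lists were chosen with earlier results of these data known. From each list, up to 3 passing genes with the largest rise and fall from 4 hr to 24 hr and up to 2 in each direction with vitC were named, with Nfe2l2, Keap1, Bach1, Mtf1, and Slc30a1 always. Alternatives were DESeq2 1.42.0, edgeR with RLE factors, no filter, and scaling without Lars2, Gm23935, and ENSMUSG00000093077. Others were GC content and length offsets (values for 97.2% of genes), models without a term, and each library left out. A further alternative, chosen after seeing the data, left out both the vitC 16 hr and vitC 24 hr libraries. One result of the ranking by likeness is not reported here.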

Additional observations from a re-analysis of the deposited data

Results flagged for a closer look

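Both metallothioneins had opposite signs in the treatments between 4 hr and 16 hr. Mt2 had a 2i log2 ratio, 16 hr over 4 hr, of -0.996 and a vitC log2 ratio of 0.24, a difference of 1.24. For Mt1 the log2 ratios were -0.25 and 0.44, a difference of 0.68. With 1 library per group, neither difference was tested, and lane and time cannot be told apart in this step.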

How the results depend on the processing

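The 6 lower members (Hmox1, Nqo1, Gclc, Gclm, Txnrd1, and Srxn1) kept their sign at each time in all 15 alternatives, but at 16 hr Nqo1 and Srxn1 were called in 8 of the 15 and Txnrd1 in 9. With vitC, the genes called were 299 by DESeq2, 690 without the filter, 15 with GC and length offsets, 0 without a time term, and 106 without both the vitC 16 hr and vitC 24 hr libraries. The share of these vitC calls that were higher was 64.0% in the additive model, 77.9% by DESeq2, and 46.2% without those 2 libraries. Without a treatment term, 1289 genes were called at 16 hr and 1889 at 24 hr, with 3 members at 16 hr and 5 at 32 hr, 2 NRF2 regulators at 16 hr and 2 at 24 hr, 3 other NRF2 targets at 16 hr, and 1 metal gene at 16 hr. Without the filter, 6 glutathione, thioredoxin, and peroxide enzymes were called at 16 hr and 7 at 24 hr, 7 metal genes at 24 hr, and with vitC 1 member, 1 regulator, 1 other target, 1 enzyme, and 2 metal genes. DESeq2 called 1 regulator, 1 other target, and 1 enzyme with vitC, and GC and length offsets left 3 other targets at 16 hr. Without both the vitC 16 hr and vitC 24 hr libraries, 2 regulators were called at 16 hr and 1 at 24 hr, 10 other targets at 32 hr, and 8, 7, and 7 enzymes at 16, 24, and 32 hr. The causes were not tested, and nothing is read from the calls of members, which were proposed with these contrasts known. With each library left out, the genes called ranged from 647 to 2063 at 16 hr, 748 to 3341 at 24 hr, 1410 to 4073 at 32 hr, and 0 to 458 with vitC. In the same order, members ranged from 3 to 6, 5 to 7, 5 to 7, and 0 to 0, regulators from 0 to 4, 1 to 6, 1 to 6, and 0 to 1, and other targets from 2 to 5, 3 to 6, 3 to 7, and 0 to 1. Enzymes ranged from 1 to 4, 1 to 6, 3 to 4, and 0 to 1, and metal genes from 1 to 8, 1 to 8, 4 to 7, and 0 to 1. The additive model compares the treatments within each time, and the labels give no replicate numbers for any other pairing. Depth limits Slc7a11 most, with 21 to 108 counts per library.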
